A study of Homo sapiens with 12 samples.

Results

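The 9 genes described here act at the surface of the vessel wall on blood clotting, on clot removal or in sensing the proteases of both. They were taken by symbol from the deposited table of transcript levels: *TFPI*, *TFPI2*, *F3*, *THBD*, *PROCR*, *PLAT*, *PLAU*, *F2R* and *F2RL1*, 9 of the 35587 symbols in it. The cells were TeloHAEC, human aortic endothelial cells made immortal with telomerase, in 3 lines given as NT (control, genotype labelled wild type), TKO (TSPAN14 knockout) and NKO (NOTCH1 knockout). The knockouts were made with Cas9 and guide RNAs, and each stands for 1 edited line. Whether a line is a clone or a pool, and what guide NT received, the sources used here do not say. Cells of each line were kept for 24 h on plastic coated at 2.5 mg/mL with control IgG or with DLL4, a ligand of the Notch receptors, and polyA RNA was sequenced. That gives 6 groups of 2 libraries. They are labelled biological replicates, but nothing says that they came from separately thawed or edited cultures, so the p-values measure only the spread between these libraries.

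Clotting starts when tissue factor, the product of *F3*, binds factor VIIa. TFPI blocks that complex together with factor Xa, and its relative TFPI2 inhibits plasmin and other serine proteases in the matrix. Thrombomodulin (*THBD*) turns thrombin from a clotting enzyme into an activator of protein C, and the endothelial protein C receptor (*PROCR*) presents protein C to it. Tissue plasminogen activator (*PLAT*) and urokinase (*PLAU*) both convert plasminogen to plasmin, which dissolves fibrin. Thrombin also signals to the cell by cutting the receptor PAR1 (*F2R*), while PAR2 (*F2RL1*) is cut by trypsin-like proteases and by tissue factor with its enzymes, but not efficiently by thrombin.

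Promoter stretches are printed for 5 genes that differed between coatings or between lines. The window of *PROCR*, whose differences were small, is not shown. RefSeq (GRCh38.p14) gave 7 promoter windows for 6 of the 9 genes. *THBD*, *PLAT* and *F2R* had no entry. The 250 bases before each RefSeq start were searched on both strands for 5 motifs. The RBPJ core, bound by the DNA-binding partner of cleaved Notch, was spelled TGGGAA. The site of AP-1, a factor induced by growth signals, was spelled TGANTCA. The site of the early response factor EGR1, which may overlap the next motif, was spelled GCGGGGGCG. The GC box, bound by the Sp family of factors, was spelled GGGCGG. The TATA box, which helps to place the start of transcription, was spelled TATAAA. Below, each stretch is given 5′ to 3′ on the strand of its gene, with the match or matches named beside it in capitals. GC boxes of *F3* are left in lower case.
TFPI, chr2:187554474-187554503, minus strand, RBPJ core read as TTCCCA: gaagttgggctaTTCCCAactgccagtgat
TFPI2, chr7:93890974-93891003, minus strand, RBPJ core: tgcagatTTCCCAttactgacacaaacgct
TFPI2, chr7:93890823-93890852, minus strand, AP-1: agtccccgtgcaTGAATCAgccacccctca
PLAU, chr10:73910378-73910407, plus strand, RBPJ core: cctaggactttgTTCCCAcaatcctgtaac
F3, chr1:94541801-94542009, minus strand, AP-1 at 2 places, then EGR1: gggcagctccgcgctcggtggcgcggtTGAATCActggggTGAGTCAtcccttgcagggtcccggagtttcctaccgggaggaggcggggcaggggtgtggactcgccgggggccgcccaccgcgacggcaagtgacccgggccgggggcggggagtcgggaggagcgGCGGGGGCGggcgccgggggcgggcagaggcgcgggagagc
F2RL1, chr5:76818780-76818932, plus strand, GC box read as CCGCCC: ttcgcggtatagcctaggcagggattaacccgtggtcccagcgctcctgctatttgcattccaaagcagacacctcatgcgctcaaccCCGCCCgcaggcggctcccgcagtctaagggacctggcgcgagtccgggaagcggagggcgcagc

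The RBPJ core began 56 bases before the start of *TFPI*, 243 before that of *TFPI2* and 220 before one of the 2 RefSeq starts of *PLAU*. The windows of *TFPI2* and *PLAU* lie wholly within exons that GENCODE 29 gives to these or overlapping genes. It places other starts of *TFPI*, *TFPI2*, *F3*, *PLAU* and *F2RL1* upstream of those used here. Annotated exons also cover 144 bases of the *TFPI* window, 97 of that of *F2RL1* and 41 of that of *F3*, which include its TATA box. Of 34943 RefSeq windows of this length, 20.9% hold those letters, against 6.59% for AP-1, 4.71% for EGR1, 42.5% for the GC box and 10.8% for the TATA box. *TFPI2* held AP-1 (87 bases before its start) and EGR1 (118), and *F3* held AP-1 at 223 and 210 bases, EGR1 at 82 and a TATA box at 28. The TGGGAA letters were not in the windows of *F3*, *PROCR* or *F2RL1*. A match describes the letters only, and no binding was measured here.

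All 9 genes were detected in all 12 libraries. Values are TPM (scaled for transcript length and library total, so levels of different genes can be set side by side). The table gives no read counts, so depth per library is unknown. Summed TPM ran from 974989 to 977130. The correlation of log2 values was 0.987 to 0.992 within a group and 0.937 to 0.989 between groups. The 10 endothelial markers listed all averaged at least 1 TPM and summed to 1463 to 1911 TPM per library. Of the fibroblast, platelet and hepatocyte markers, 0 of 6, 0 of 5 and 0 of 5 reached that mean over the 12 libraries (*ALB* was at 0 in every library), while 3 of 6 smooth muscle, 2 of 6 leukocyte and 2 of 5 epithelial markers did (*KRT5* was at 0 in every library). The 2 epithelial genes were *KRT18* and *KRT8*, with means of 673 and 64.2 TPM over the 12 libraries. Both were highest in NKO on each coating. Single markers moved with line or coating. The endothelial gene *CLDN5* had means of 140.02 and 40.8 TPM in NT, 85.6 and 33.6 TPM in TKO and 34.1 and 15.9 TPM in NKO (IgG, then DLL4), and *VWF* had 8.58 TPM in NT, 30.2 TPM in TKO and 29.4 TPM in NKO on IgG. In TKO the fibroblast gene *COL1A2* averaged 2.81 TPM on IgG against 0.09 TPM in NT, and the leukocyte gene *CD14* 2.54 TPM against 0.13 TPM and, on DLL4, 7.86 TPM against 0.30 TPM. No other fibroblast gene listed was higher in TKO than in NT on IgG (*PDGFRB* averaged 0.53 TPM against 1.09 TPM). The smooth muscle gene *TAGLN* averaged 82.4 TPM in NKO against 23.6 TPM in NT on IgG. There *ACTA2* averaged 10.6 TPM in NKO against 13.6 TPM in NT, and *SMTN* 102 TPM against 92.9 TPM. Their part in the differences between lines was not tested. *TSPAN14* lay at 109 to 148 TPM in TKO and 172 to 218 TPM in NT (lower on both coatings), and *NOTCH1* at 15.6 to 19.5 TPM in NKO and 17.8 to 31.5 TPM in NT (lower by the test on DLL4, not on IgG). Both targeted genes were thus still transcribed, which does not show whether their proteins were made. In bulk RNA, fewer expressing cells and less RNA per cell cannot be told apart.

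Each difference below is a change on the log2(TPM + 1) scale with its standard error from limma, fitted on 13299 genes, and its Benjamini-Hochberg adjusted p over all of them. The standard error rests on 1 spread per gene, pooled over the 6 groups. A gene is said to have risen or fallen where that p is under 0.05. Comparisons of DLL4 with IgG in 1 line and of 2 lines on 1 coating use some of the same libraries. The 2 edited lines are compared with the same NT libraries.

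**Figure D1:**
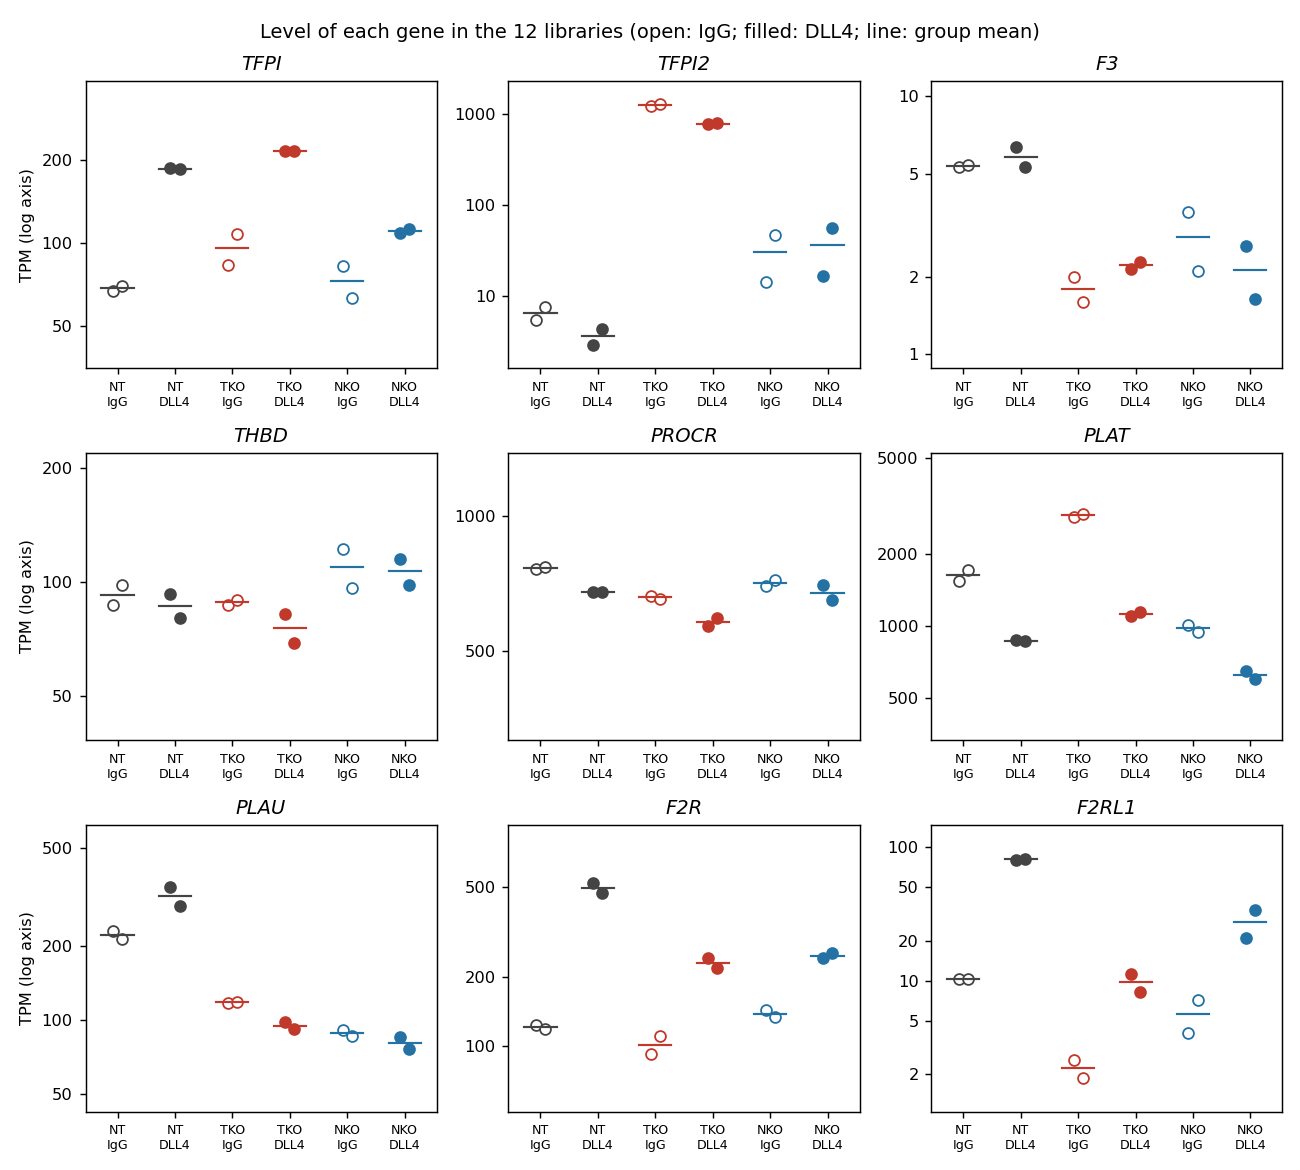
Level of each of the 9 genes in TPM (log axis) in the 12 libraries, by line and coating; open circles are IgG libraries, filled circles DLL4 libraries and the line is the mean of the 2. F2R and F2RL1 are higher on DLL4 in each line, PLAT is lower on DLL4 in each line, and TFPI2 is at 769 TPM or more in TKO and at 55.96 TPM or less elsewhere.

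The thrombin receptor gene *F2R* (ENSG00000181104.6, chr5:76716043-76735781, plus strand, GRCh38, as are all gene positions here) rose on DLL4 in all 3 lines. In NT its level was 123 and 119 TPM on IgG and 519 and 468 TPM on DLL4. In TKO it was 92.4 and 110.1 TPM on IgG and 242 and 219 TPM on DLL4. In NKO it was 143 and 134 TPM on IgG and 242 and 256 TPM on DLL4. The coatings did not overlap in any line, and on DLL4 the NT libraries stood above those of both edited lines. The increase on DLL4 reached 2.02 ± 0.10 in NT (adjusted p = 6.2e-07, 4.07-fold in mean TPM), 1.18 ± 0.10 in TKO (adjusted p = 4.6e-05) and 0.84 ± 0.10 in NKO (adjusted p = 0.0018).

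The *F2R* response was smaller in NKO than in NT by a test of the difference itself (-1.17 ± 0.13, adjusted p = 0.0026), and leaving out any 1 of the 8 libraries kept that call. In TKO it was also smaller than in NT (-0.83 ± 0.13, adjusted p = 0.023), but 7 of the 8 fits that left out 1 library did not keep it. The difference between NKO and TKO was -0.34, with a 95% interval from -0.64 to -0.04 (adjusted p = 0.78). On IgG, *F2R* did not pass the test between lines, at -0.26 for TKO (adjusted p = 0.065) and 0.19 for NKO (adjusted p = 0.24). The TKO libraries nevertheless lay below those of NT there, and with median-of-ratios rescaling that difference passed the test (-0.31, adjusted p = 0.015). On DLL4 it was lower than in NT by -1.09 ± 0.10 in TKO (adjusted p = 1.0e-05) and by -0.98 ± 0.10 in NKO (adjusted p = 5.0e-05).

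The PAR2 gene *F2RL1* (ENSG00000164251.4, chr5:76818933-76835315, plus strand) starts 102.9 kb beyond the start of *F2R* on the same strand, and it too rose on DLL4 in all 3 lines. Its promoter stretch is printed above. In NT its level was 10.4 TPM in both IgG libraries and 80.1 and 81.96 TPM on DLL4. TKO had 2.57 and 1.90 TPM on IgG and 11.3 and 8.26 TPM on DLL4. NKO had 4.08 and 7.15 TPM on IgG and 20.8 and 34.1 TPM on DLL4. The libraries of the 2 coatings stood apart in each line, and the TKO level on DLL4 overlapped the NT level on IgG. The increase reached 2.85 ± 0.25 in NT (adjusted p = 4.2e-05), 1.73 ± 0.25 in TKO (adjusted p = 0.0024) and 2.10 ± 0.25 in NKO (adjusted p = 0.0027).

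In mean TPM, *F2RL1* was 7.79-fold higher on DLL4 in NT, 4.38-fold in TKO and 4.88-fold in NKO. In NT that was the twelfth highest of 13299 log2 changes. The responses of the lines did not pass the test of their difference, at -1.12 for TKO minus NT (95% interval from -1.91 to -0.32, adjusted p = 0.18) and -0.74 for NKO minus NT (from -1.53 to 0.05, adjusted p = 0.42). At the low TKO levels on IgG (2.57 and 1.90 TPM) the added 1 TPM shrinks the TKO change more than the NT change. That widens the TKO minus NT difference. The level itself differed between lines. The TKO level was below that of NT by -1.83 ± 0.25 on IgG (adjusted p = 0.00036) and, with DLL4, by -2.94 ± 0.25 (adjusted p = 9.3e-06). On DLL4 the NKO level was also lower, by -1.57 ± 0.25 (adjusted p = 0.0016), and on IgG the difference was -0.82 (adjusted p = 0.064; 0.024 without library 2 of NKO on IgG).

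*F2R* and *F2RL1* lie in a cluster with *F2RL2*, the gene of PAR3, another receptor cut by thrombin. Within 500 kb of *F2R* the annotation holds 11 other protein-coding genes, of which 5 were tested. In NT, where 7.68% of all tested genes rose on DLL4, 3 of the 5 did: *F2RL1*, *F2RL2* and *IQGAP2*, which codes for a scaffold protein. *F2RL2* was at 4.92 and 5.37 TPM on IgG and 16.3 and 14.2 TPM on DLL4 in NT (1.40 ± 0.17, adjusted p = 0.00035). In TKO it was at 1.52 and 1.43 TPM on IgG and 1.71 and 1.33 TPM on DLL4 (0.02 ± 0.17, adjusted p = 0.98), and in NKO at 4.88 and 3.46 TPM on IgG and 5.84 and 5.06 TPM on DLL4 (0.33 ± 0.17, adjusted p = 0.60). Its response was smaller in TKO than in NT (-1.38, adjusted p = 0.029). For NKO minus NT the difference was -1.07 (adjusted p = 0.078). *F2RL2* thus passed the test of the DLL4 change in NT and not in the edited lines, while *F2R* and *F2RL1* passed it in each line.

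*IQGAP2* stayed low throughout, from 0.08 to 2.76 TPM, and rose in NT by 1.36 ± 0.29 (adjusted p = 0.010). It reached the 1 TPM of the filter only on DLL4, at 2.03 and 2.76 TPM in NT and 1.48 TPM in library 2 of TKO. *AGGF1*, 313.2 kb beyond the start of *F2R*, changed by 0.31 in NT (adjusted p = 0.105), and *ZBED3*, at 371.3 kb, by -0.09 (adjusted p = 0.80). The gene of the fourth receptor, *F2RL3* (PAR4), lies elsewhere. It was at 21.3 and 22.7 TPM on IgG and 15.8 and 15.1 TPM on DLL4 in NT (-0.49, adjusted p = 0.051) and fell in TKO by 0.87 on the log2 scale (adjusted p = 0.0061). *F2RL3* was also lower in TKO than in NT, by -1.63 on IgG and -2.01 on DLL4. So of the 4 receptor genes, 3 rose on DLL4 in NT and 1 did not, beside 7.68% of all tested genes that rose there.

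**Figure D2:**
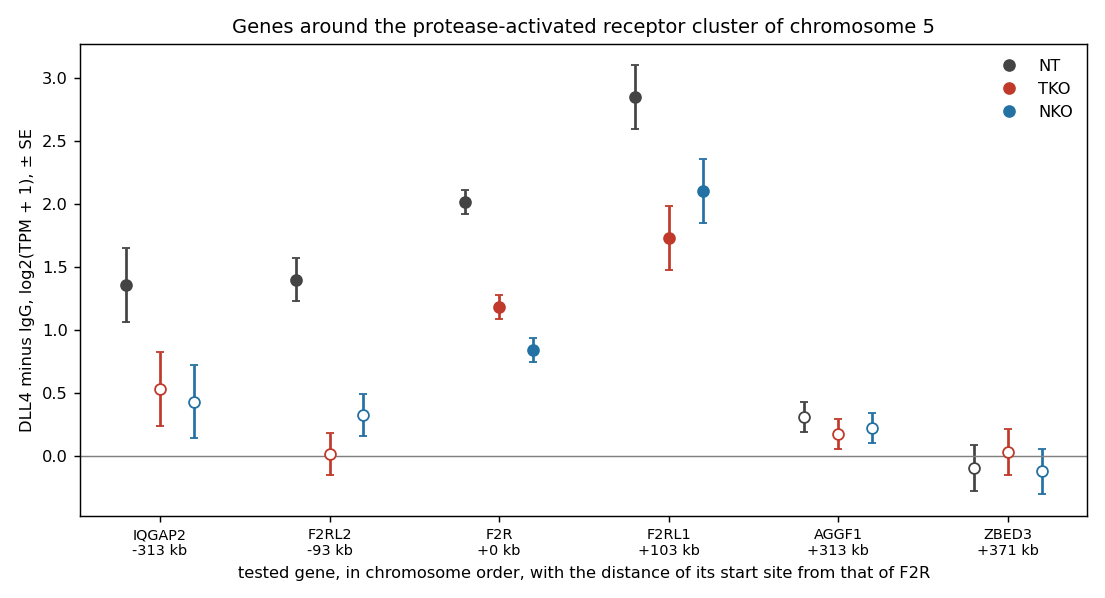
DLL4 minus IgG change (log2 of TPM + 1, with standard error) of the tested genes around F2R by line, in chromosome order and evenly spaced, with the distance of each start from that of F2R in kb under its name; filled points have an adjusted p under 0.05. F2R and F2RL1 lie above 0 in each line, while F2RL2 lies at 1.40 in NT, 0.02 in TKO and 0.33 in NKO.

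Tissue factor pathway inhibitor, *TFPI* (ENSG00000003436.15, chr2:187464230-187565760, minus strand), rose on DLL4 in NT and TKO. In NT its level was 67.05 and 69.8 TPM on IgG and 187 and 186 TPM on DLL4. TKO had 83.4 and 108 TPM on IgG and 215.9 and 216.4 TPM on DLL4. NKO had 82.3 and 63.1 TPM on IgG and 109 and 113 TPM on DLL4. The coatings stood apart in each line, with NKO on DLL4 below the other DLL4 groups. On the log2 scale DLL4 added 1.44 ± 0.13 in NT (adjusted p = 5.1e-05), 1.18 ± 0.13 in TKO (adjusted p = 0.00043) and 0.61 ± 0.13 in NKO (adjusted p = 0.076). The NKO change passed the test with median-of-ratios rescaling (adjusted p = 0.035) and with a mean of at least 5 TPM (0.036), but not with quantile normalisation.

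On DLL4, *TFPI* was lower in NKO than in NT (-0.75 ± 0.13, adjusted p = 0.0026), while on IgG the NKO and NT libraries overlapped (0.07, adjusted p = 0.76). The difference between the NKO and NT responses was -0.82 ± 0.19 (95% interval from -1.23 to -0.41, adjusted p = 0.080), and that between TKO and NT was -0.26 (from -0.67 to 0.15, adjusted p = 0.55). The difference for NKO passed the test with median-of-ratios rescaling (adjusted p = 0.039) and with a mean of at least 5 TPM (0.044), but not with quantile normalisation. TKO was higher than NT on IgG (0.47 ± 0.13, adjusted p = 0.021), a call lost in 3 of the 4 fits that left out 1 library, and did not pass the test on DLL4 (0.21, adjusted p = 0.29). The 30 bases with the RBPJ core printed above lie before one start of *TFPI*. Its one protein-coding neighbour within 500 kb, *CALCRL*, a receptor subunit for adrenomedullin, rose by 0.58 on DLL4 in NT (adjusted p = 0.031). *CALCRL* did not pass the test in TKO (-0.22, adjusted p = 0.52), where *TFPI* rose, or in NKO (0.32, adjusted p = 0.59).

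*TFPI2* (ENSG00000105825.12, chr7:93885396-93890991, minus strand) had the widest range of the 9 genes, and that range lay between lines. In NT it was at 5.44 and 7.60 TPM on IgG and 2.93 and 4.32 TPM on DLL4. TKO had 1224 and 1277 TPM on IgG and 769 and 795 TPM on DLL4. NKO had 14.3 and 47.6 TPM on IgG and 16.5 and 55.96 TPM on DLL4. No NT library reached any library of an edited line. TKO exceeded NT by 7.39 ± 0.53 on IgG (adjusted p = 3.0e-06, 192-fold in mean TPM) and, on DLL4, by 7.42 ± 0.53 (adjusted p = 2.4e-06, 216-fold). These were the third and the second highest of the 13299 log2 changes.

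In NKO, *TFPI2* exceeded NT by 2.79 ± 0.53 on DLL4 (adjusted p = 0.0044; the means were 36.2 and 3.62 TPM). On IgG the difference was 1.87 ± 0.53 (adjusted p = 0.048), and 3 of the 4 fits that left out 1 library did not call it. Median-of-ratios rescaling and quantile normalisation did not call it either (adjusted p = 0.065 and 0.081). The 2 NKO libraries of a coating were themselves more than 3-fold apart. By library number, the DLL4 level was 1.15 and 1.18 times the IgG level in NKO, 0.54 and 0.57 times in NT and 0.63 and 0.62 times in TKO. The DLL4 libraries of NT and of TKO thus lay below their IgG libraries, but the change did not pass the test, at -0.70 ± 0.53 in NT (adjusted p = 0.43) and -0.68 ± 0.53 in TKO (adjusted p = 0.56; 0.037 when only the 4 TKO libraries were fitted). That standard error is pooled over all lines, so the NKO libraries, more than 3-fold apart, enter it. With the library number as a block in limma, which the main fit did not use, both falls passed the test (adjusted p = 0.0043 in NT and 0.0088 in TKO).

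Around *TFPI2* the same excess was not seen. *GNG11*, a G protein subunit gene 30.7 kb away, had a mean of 252.7 TPM in NT on IgG, 211 in TKO and 139 in NKO and was lower in TKO than in NT on IgG (-0.26, adjusted p = 0.026). *BET1*, at 71.8 kb, differed by 0.04 (adjusted p = 0.79). The gene *GNGT1*, which overlaps *TFPI2* on the opposite strand, reached at most 0.42 TPM. Whether counting used the strand is not stated.

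The tissue factor gene *F3* (ENSG00000117525.13, chr1:94529225-94541800, minus strand), whose promoter stretch is printed above, was low in these cells and lower in both edited lines. NT had 5.31 and 5.42 TPM on IgG and 6.36 and 5.30 TPM on DLL4. TKO had 2.00 and 1.59 TPM on IgG and 2.15 and 2.27 TPM on DLL4. NKO had 3.57 and 2.11 TPM on IgG and 2.62 and 1.63 TPM on DLL4. Every NT library lay above every library of the edited lines, whereas the 4 groups of edited lines overlapped from one to the next in order of their means. Relative to NT, *F3* in TKO was lower by -1.19 ± 0.22 on IgG (adjusted p = 0.0020) and -1.08 ± 0.22 on DLL4 (adjusted p = 0.0032), and in NKO by -1.14 ± 0.22 on DLL4 (adjusted p = 0.0041). The NKO difference on IgG was -0.76 ± 0.22 (adjusted p = 0.048) and was lost in 3 of the 4 fits without 1 library. That NKO call was also lost with 0.1 TPM added in place of 1 TPM (adjusted p = 0.064) and without the filter on low values (adjusted p = 0.13). DLL4 changed *F3* by 0.10 in NT, 0.20 in TKO and -0.29 in NKO, with adjusted p from 0.69 to 0.82. At such levels the added 1 TPM shrinks log2 changes, and in mean TPM the NT level on IgG was 2.98-fold that of TKO.

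**Figure D3:**
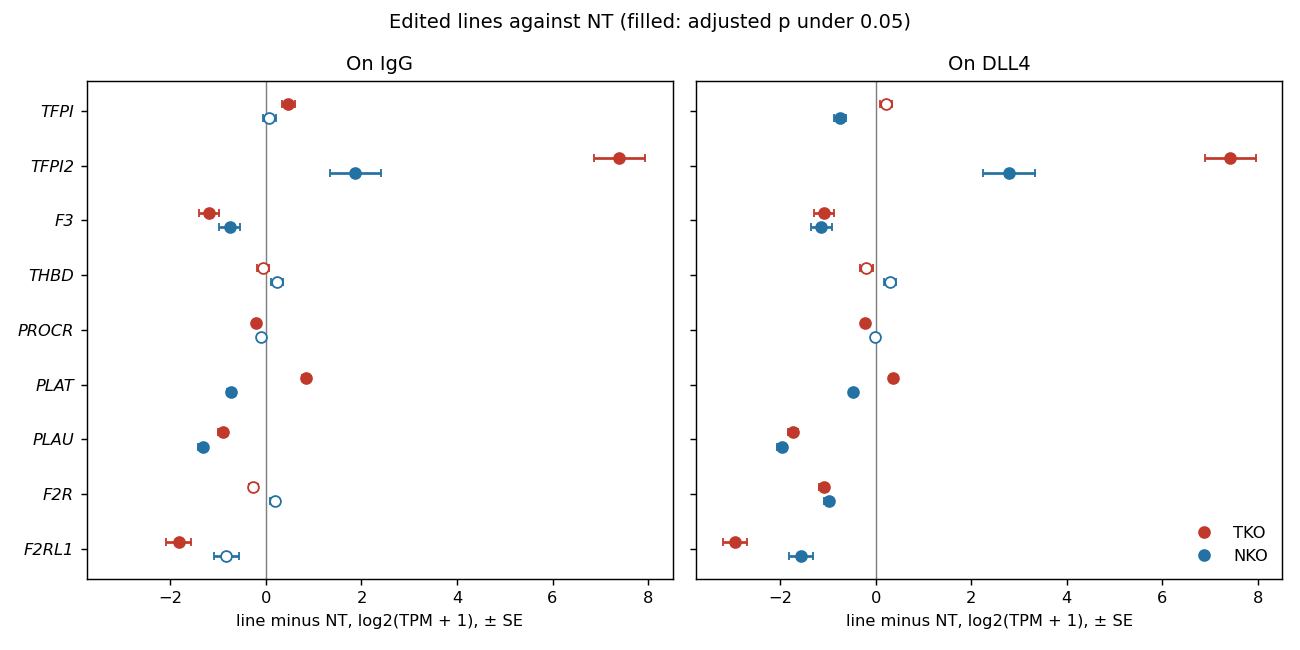
Difference of each edited line from NT (log2 of TPM + 1, with standard error) for the 9 genes, on IgG (left) and DLL4 (right), with filled points where the adjusted p is under 0.05. TFPI2 lies at 7.39 and 7.42 for TKO, and PLAU, F3 and F2RL1 lie below 0 for both lines on both coatings.

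The 2 genes of the protein C pathway moved little. *THBD* (ENSG00000178726.6, chr20:23045633-23049741, minus strand) passed the test in 0 of the 10 comparisons by limma, with 1 at an unadjusted p under 0.05 (NKO against NT on DLL4, 0.30, adjusted p = 0.15). Its libraries ran from 68.9 TPM (TKO on DLL4) to 122 TPM (NKO on IgG). NT had 86.9 and 98.1 TPM on IgG and 92.99 and 80.4 TPM on DLL4, TKO had 87.1 and 89.9 TPM on IgG and 82.3 and 68.9 TPM on DLL4, and NKO had 122 and 96.7 TPM on IgG and 115 and 98.4 TPM on DLL4. The 95% interval of the DLL4 change ran from -0.39 to 0.20 in NT, from -0.52 to 0.07 in TKO and from -0.32 to 0.27 in NKO. *KLF2*, a flow-responsive transcription factor known to raise *THBD*, was higher in TKO than in NT on both coatings (1.23, adjusted p = 0.00031 on IgG; 1.10, adjusted p = 0.00054 on DLL4) and higher in NKO (0.73 on IgG, 0.57 on DLL4).

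*PROCR* (ENSG00000101000.5, chr20:35172073-35216240, plus strand) was among the most abundant of the 9, at 568 to 770.4 TPM. NT had 759.8 and 770.4 TPM on IgG and 676 and 678 TPM on DLL4, TKO had 663 and 654 TPM on IgG and 567.9 and 591 TPM on DLL4, and NKO had 698 and 719 TPM on IgG and 699.9 and 648 TPM on DLL4. The DLL4 change was -0.18 ± 0.06 in NT (adjusted p = 0.072), -0.18 ± 0.06 in TKO (adjusted p = 0.10) and -0.07 ± 0.06 in NKO (adjusted p = 0.79). TKO was lower than NT by -0.22 ± 0.06 on both coatings (adjusted p = 0.020 on IgG and 0.016 on DLL4). That call was lost in 3 of 4 fits without 1 library on IgG and in all 4 on DLL4, where adjusted p ran from 0.054 to 0.14.

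The tissue plasminogen activator gene *PLAT* (ENSG00000104368.17, chr8:42175233-42207724, minus strand) fell on DLL4 in all 3 lines. In NT it went from 1535 and 1717 TPM on IgG to 870.5 and 866 TPM on DLL4. In TKO it went from 2846 and 2925 TPM to 1095 and 1147 TPM. In NKO it went from 1011 and 940.1 TPM to 646 and 602 TPM. The coatings stood apart in each line, and the 6 groups stood apart from each other, with TKO on IgG at the top and NKO on DLL4 at the bottom. The log2 change came to -0.90 ± 0.07 in NT (adjusted p = 1.9e-05), -1.36 ± 0.07 in TKO (adjusted p = 2.2e-06) and -0.64 ± 0.07 in NKO (adjusted p = 0.0016), or a 1.87-, 2.57- and 1.56-fold lower mean TPM.

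The *PLAT* response was larger in TKO than in NKO (0.72 ± 0.10 for NKO minus TKO, adjusted p = 0.021), although 6 of the 8 fits without 1 library did not call that difference. Neither edited line passed the test against NT (-0.46, adjusted p = 0.077 for TKO, and 0.26, adjusted p = 0.30 for NKO). Between TKO and NT, *PLAT* was higher in TKO, with a difference of 0.83 ± 0.07 on IgG (adjusted p = 1.1e-05) and 0.37 ± 0.07 for the DLL4 libraries (adjusted p = 0.0026).

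In NKO, *PLAT* was lower than in NT, with differences of -0.73 ± 0.07 on IgG (adjusted p = 8.4e-05) and -0.48 ± 0.07 on DLL4 (adjusted p = 0.00094). The gene lies on the short arm of chromosome 8, and the other genes of that arm were also lower in NKO. Of the 143 others tested, 70 were lower and 3 higher on IgG, with a median of -0.46, and 81 were lower and 3 higher on DLL4, with a median of -0.50. The median over all tested genes was 0.06 on both coatings. The part of this arm-wide shift in the *PLAT* difference was not tested. In TKO against NT on IgG the same 143 genes had a median of 0.02.

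Urokinase, *PLAU* (ENSG00000122861.15, chr10:73909177-73917497, plus strand), was lower in both edited lines and rose on DLL4 in NT. NT had 229.8 and 214 TPM on IgG and 347 and 290.4 TPM on DLL4. TKO had 117.7 and 118.5 TPM on IgG and 98.3 and 91.5 TPM on DLL4. NKO had 90.7 and 85.6 TPM on IgG and 85.04 and 76.1 TPM on DLL4. All 6 groups stood apart. The DLL4 libraries were above the IgG libraries in NT and below them in TKO and NKO. The DLL4 change came to 0.52 ± 0.10 in NT (adjusted p = 0.0047; 0.061 when only the 4 NT libraries were fitted), -0.31 ± 0.10 in TKO (adjusted p = 0.085) and -0.13 ± 0.10 in NKO (adjusted p = 0.76). The TKO change passed the test under each of 3 rescalings (adjusted p = 0.041 with median-of-ratios, 0.038 with quantile normalisation and 0.038 with *KPNA2P2*, an abundant pseudogene, left out).

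The *PLAU* response differed between TKO and NT (-0.83 ± 0.14, adjusted p = 0.023), a call that 7 of the 8 fits without 1 library did not keep. For NKO minus NT the difference was -0.65 ± 0.14 (adjusted p = 0.061). It passed the test with median-of-ratios rescaling (adjusted p = 0.035), quantile normalisation (0.043) and *KPNA2P2* left out (0.034). The same held with a mean of at least 5 TPM and with the library number as a block (0.036 each). It did not pass with 0.1 TPM added in place of 1 TPM, without the filter on low values or without the variance trend. Between lines the level differed on both coatings. TKO was lower than NT by -0.90 ± 0.10 on IgG (adjusted p = 5.3e-05) and -1.73 ± 0.10 on DLL4 (adjusted p = 3.6e-07). NKO was lower by -1.32 ± 0.10 on IgG (adjusted p = 8.6e-06) and -1.97 ± 0.10 on DLL4 (adjusted p = 7.2e-07). *C10orf55*, which overlaps *PLAU* on the opposite strand, was at 0.94 to 2.96 TPM, and without a stated strand its reads and those of *PLAU* cannot be told apart.

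Thus the 2 plasminogen activators differed from NT in opposite directions in TKO, *PLAT* higher and *PLAU* lower, while both were lower in NKO. On IgG the ratio of mean TPM to NT was 1.77 for *PLAT* and 0.53 for *PLAU* in TKO, and 0.60 and 0.40 in NKO.

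**Figure D4:**
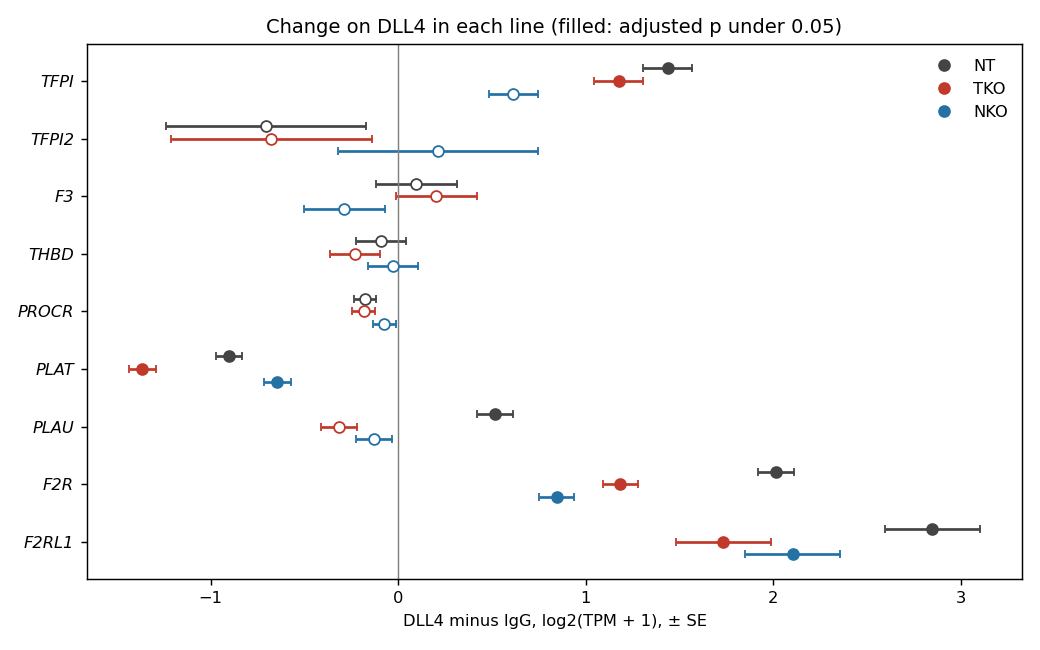
DLL4 minus IgG change (log2 of TPM + 1, with standard error) of the 9 genes in NT, TKO and NKO; filled points have an adjusted p under 0.05. F2R, F2RL1 and TFPI lie above 0 and PLAT below 0 in each line, and PLAU lies above 0 in NT (0.52) and below 0 in TKO (-0.31).

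Counted over the 9 genes, 4 rose and 1 fell on DLL4 in NT, where 16% of the 13299 tested genes were called (7.68% higher, 8.34% lower). The same comparison in TKO gave 3 that rose and 1 that fell (6.51% of all tested genes called, 4.11% higher and 2.41% lower), and in NKO 2 that rose and 1 that fell (0.782% called, 0.511% higher and 0.271% lower). *F2R*, *F2RL1* and *PLAT* were the 3 called in every line. When only the 4 NKO libraries were fitted, limma called 0 of the 9, with 4 at an unadjusted p under 0.05, and 0 of all 13299 genes, while the log2 changes stayed as given above. With only the 4 TKO libraries fitted, *TFPI* and *F2RL1* missed the threshold (adjusted p = 0.058 for each) and *TFPI2* passed it as lower (adjusted p = 0.037).

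Between lines, 3 of the 9 were higher and 4 lower in TKO than in NT on IgG (27.6% of all tested genes called, 15.2% higher and 12.4% lower), and 2 were higher and 5 lower on DLL4 (26.6% called, 16.1% higher and 10.5% lower). In NKO against NT, 1 was higher and 3 lower on IgG (10.7% called, 4.92% higher and 5.74% lower), and 1 was higher and 6 lower on DLL4 (20.7% called, 11.4% higher and 9.31% lower). *F3* and *PLAU* were lower and *TFPI2* higher in all 4 of these comparisons. In NKO on IgG, however, the calls of *F3* and *TFPI2* lay close to the threshold (adjusted p = 0.048 each) and were lost under several alternatives. The DLL4 response was smaller for 2 of the 9 in TKO than in NT (0.526% of all tested genes called, 0.196% higher and 0.331% lower) and for 1 in NKO than in NT (0.887% called, 0.316% higher and 0.571% lower). For 1 gene it was higher in NKO minus TKO (0.15% called, 0.0677% higher and 0.0827% lower). The 9 genes had a median log2 change of 0.10 in NT, -0.18 with TKO and -0.03 with NKO cells, beside 0.01 for all tested genes in each line. The 9 genes were chosen with earlier results of these data known, so the counts describe them and do not test them as a group.

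The wider pathway was followed in 62 further genes in 6 lists, of which 40 passed the filter on low values. On DLL4, 7 rose and 6 fell in NT, 2 rose and 7 fell in TKO, and 1 fell in NKO, against the shares of all genes given above. In TKO against NT, 15 were higher and 5 lower on IgG and 9 higher and 8 lower on DLL4. In NKO against NT, 9 were higher and 2 lower on IgG and 10 higher and 3 lower on DLL4.

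Among genes of the plasminogen system, 7 of 12 were tested. *PLAUR*, the urokinase receptor, was the one that fell in NKO, and it fell in each line. It went from 222 and 231 TPM to 181 and 164 TPM in NT (-0.39, adjusted p = 0.018), by -1.01 in TKO (adjusted p = 0.00013) and by -0.56 in NKO (adjusted p = 0.024). *S100A10*, part of a plasminogen receptor on the cell surface, rose by 0.38 in NT (adjusted p = 0.0042) and 0.35 in TKO (adjusted p = 0.012). *SERPINB2*, an inhibitor of urokinase, differed between lines in opposite directions. On IgG it was at 67.3 and 78.5 TPM in NT, 417 and 288 TPM in TKO and 9.26 and 5.20 TPM in NKO (2.24, adjusted p = 0.00048 for TKO and -3.21, adjusted p = 0.00011 for NKO). *SERPINE2*, which also inhibits plasminogen activators, was higher than in NT by 1.54 in TKO (adjusted p = 1.6e-06) and by 0.59 in NKO (adjusted p = 0.0039) on IgG.

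All 10 listed protease receptors and transducers of their signals were tested, and on DLL4 in NT 3 rose and 2 fell, beside 7.68% and 8.34% of all tested genes. *RGS4*, which shortens signals of G proteins that such receptors use, rose from 73.2 and 77.4 TPM to 248 and 229 TPM in NT (1.65, adjusted p = 7.9e-05). It rose by 0.72 in TKO (adjusted p = 0.023), and its response was smaller in NKO than in NT (-1.19, adjusted p = 0.042). *RGS2*, a regulator of the same kind, fell in NT (-1.38, adjusted p = 0.00065) and in TKO (-1.86, adjusted p = 0.00017).

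Of the procoagulant factors and the proteins that process them, 8 of 19 were tested, and in NT 1 rose on DLL4, beside 7.68% of all tested genes. It was *ANO6*, a scramblase that exposes the lipid on which clotting enzymes assemble (0.92, adjusted p = 0.0048). *LMAN1*, a cargo receptor for factors V and VIII, was higher in TKO than in NT on IgG (0.78, adjusted p = 0.0012). Of the other anticoagulants, 4 of 10 were tested. *SERPIND1*, heparin cofactor II, fell on DLL4 from 114 and 116 TPM to 69.2 and 70.2 TPM in NT (-0.72, adjusted p = 0.044) and by -1.21 in TKO (adjusted p = 0.0068). *HS3ST1*, which builds the heparan sulphate that binds antithrombin, was at 0.32 and 0.76 TPM in NT and 4.85 and 4.42 TPM in TKO on IgG (1.88, adjusted p = 6.7e-05).

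The 8 vessel wall regulators of platelets were all tested. *THBS1*, thrombospondin 1, rose on DLL4 from 119 and 127 TPM to 699.9 and 603 TPM in NT (2.39, adjusted p = 5.7e-05), and its response was smaller in NKO (-1.60, adjusted p = 0.047). *MMRN1*, a factor V binding protein, was higher than in NT on both coatings in TKO (2.95 and 2.68) and in NKO (1.14 and 0.90). *NT5E*, which makes adenosine, fell on DLL4 in NT (-0.37, adjusted p = 0.046) and TKO (-0.75, adjusted p = 0.0025). Among 3 transcription factors known to act on *THBD* or *F3*, *EGR1* fell on DLL4 from 3.16 and 4.69 TPM to 0.67 and 0.76 TPM in NT (-1.51, adjusted p = 0.0028). On IgG, *EGR1* was 0.89 higher in TKO than in NT (adjusted p = 0.023).

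For each of the 9 genes, the 3 genes whose log2 values followed it most closely over the 12 libraries were looked up among 9560 genes with a mean of at least 5 TPM. These correlations describe 6 groups of 2 libraries that share lines, coatings and scaling. *F2R* was followed by *ROR1* (Pearson's r = 0.994), *PDLIM3* (0.980) and *AC006453.2* (0.976). *F2RL1* was followed by *NREP* (0.982), *ST3GAL5* (0.976) and *HTR1D* (0.972). *TFPI* was followed by *MTRF1L* (0.981), *DLL4* itself (0.969) and *SLC46A3* (0.966), and *TFPI2* by *ZDHHC2* (0.988), *BACE2* (0.978) and *SARM1* (0.976). For *PLAT* they were *FERMT3* (0.983), *GALNT12* (0.969) and *HPCAL1* (0.966), and for *PLAU* *TRPV2* (0.979), *PCBP4* (0.966) and *ASPH* (0.959). *F3* had *HIBADH* (0.957), *LCP2* (0.956) and *TUBB2A* (0.951). The highest values for *THBD* (*PPAT*, 0.955) and *PROCR* (*BATF3*, 0.956) were the lowest of the 9 genes, but close to that of *F3*. These 2 genes varied little, so a high r over these libraries does not need a large change.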

How the data were processed

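RNA-seq of 12 TeloHAEC libraries was read as deposited TPM by gene symbol. Per the submitters' processing notes, kallisto, edgeR and hg38 were used, with versions, annotation and strand setting not given in the sources used here. Columns are numbered 2 and 3 (NT, TKO) or 1 and 2 (NKO), and libraries are called by those numbers. Of 35587 symbols, the 13299 with at least 1 TPM in at least 2 libraries were tested on log2(TPM + 1) with limma 3.58.1 (R 4.3.3), 1 mean per group over all 12 libraries, a variance trend and Benjamini-Hochberg adjustment, threshold 0.05, leaving 6 residual degrees of freedom (10.8 after moderation). The fit was tested on simulated data. An exact permutation test of 2 against 2 libraries cannot go below p = 0.333. The members, pathway lists and markers were chosen with earlier results of these data known. Each list names up to 4 further genes, those with the smallest p over the 3 comparisons of DLL4 with IgG. Neighbouring and overlapping genes fall outside that rule and were named after their values were seen. Gene positions are from GENCODE 29. Alternatives changed the pseudocount, filter, scaling, block, variance trend, libraries fitted and each library in turn.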

Additional observations from a re-analysis of the deposited data

Results flagged for a closer look

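The DLL4 responses of 3 genes differed between lines by a test of the difference itself. *F2R* responded less in TKO than in NT (-0.83, adjusted p = 0.023) and less in NKO than in NT (-1.17, adjusted p = 0.0026). *PLAU* responded less in TKO than in NT (-0.83, adjusted p = 0.023), with a positive change in NT and a negative one in TKO. *PLAT* fell less in NKO than in TKO (0.72, adjusted p = 0.021). Leaving out 1 library in turn kept the *F2R* call for NKO in 8 of 8 limma fits, those for *F2R* and *PLAU* in TKO in 1 of 8 each, and that for *PLAT* in 2 of 8.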

How the results depend on the processing

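Over the alternatives run on the 9 genes no called change turned its direction: 1174 values kept their side of the threshold, 65 lost a call, 29 gained one and 0 reversed. The number of the 9 called by limma moved by over 1.5 times as follows, and the cause was not tested. For DLL4 against IgG in NKO, 3 became 0 when only the 4 libraries compared were fitted (4 at an unadjusted p under 0.05), a fit that called 0 of all 13299 genes. For NKO against NT on IgG, 4 became 2 without the filter on low values or with only the libraries compared, and 2 to 4 were called when 1 library was left out. For the difference of response between TKO and NT, 2 became 0 without the filter or without the variance trend (4 at an unadjusted p under 0.05), 1 with only the libraries compared, and 0 to 1 when 1 library was left out. Between NKO and NT, 1 became 3 with a mean of at least 5 TPM (which leaves 8 of the 9, without *F3*) or median-of-ratios rescaling, 2 with quantile normalisation or with *KPNA2P2* left out, and 1 to 2 when 1 library was left out. Between NKO and TKO, 1 became 0 without the filter, with median-of-ratios rescaling, without the variance trend or with only the libraries compared (2 to 3 at an unadjusted p under 0.05), and 0 to 1 were called when 1 library was left out. The pseudogene *KPNA2P2* took 0.28% to 5.61% of the TPM of a library.

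Over all genes, the deviations of libraries with the same number had an r of 0.28 in NKO but of 0.00 in NT, 0.016 in TKO, and 0.090 and 0.070 between NT and TKO. Since not every pair exceeded 0.1, the numbers were not used as pairs. With the number as a replicate block, 3 of the 9 differed in response between NKO and NT in place of 1, and *TFPI2* fell on DLL4 in NT (-0.70, adjusted p = 0.0043) and TKO (-0.68, adjusted p = 0.0088). The block also called the fall of *PLAU* on DLL4 in TKO (adjusted p = 0.042) and the smaller *F2RL1* response in TKO than in NT (-1.12, adjusted p = 0.047). The added 1 TPM widens that *F2RL1* difference.

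Over all 13299 genes, leaving out 1 library gave 958 to 1213 calls for DLL4 in NT (2130 with all), 302 to 542 in TKO (866) and 37 to 85 in NKO (104). It gave 2424 to 3436 for TKO against NT on IgG (3666), 2315 to 2653 on DLL4 (3543), 664 to 1579 for NKO against NT on IgG (1418) and 1450 to 1802 on DLL4 (2758). The differences of response gave 8 to 76 (70), 31 to 72 (118) and 2 to 19 (20). The share of calls that were higher went from 63% to 52.3% for DLL4 in TKO with *KPNA2P2* left out, from 55.1% to 44.9% for NKO against NT on DLL4 with median-of-ratios rescaling, and, for NKO minus TKO, from 45% to 33.3% with that rescaling or quantile normalisation, to 23.3% without the filter and to 20% without the variance trend. For TKO minus NT it went from 37.1% to 47.2% with a mean of at least 5 TPM. For TKO against NT on IgG it went from 55.1% to 47.6% with quantile normalisation. With 2 libraries a group and no counts, small changes such as those of *THBD* and *PROCR* and levels such as those of *F3* are known only within the intervals given.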
